A study of Mus musculus with 10 samples.

Results

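Complement components are blood and tissue proteins that mark surfaces for removal, and 9 of their genes were followed here in failing mouse heart: C1qa, C1qb, C1qc, C1ra, C1s1, C2, C4b, C3 and C7. They were chosen by gene symbol from the 57185 genes with counts. Their level in any group played no part in that choice, although earlier results of these data were known when it was made. The study asked what deletion of RAD, a brake on the cardiac L-type calcium channel, does in hearts with established dilated cardiomyopathy. RNA was taken from the apical part of the ventricle of 10 mice, 5 in each of 2 groups, and 1 polyA-selected library was counted per mouse. Both groups lacked muscle LIM protein (Csrp3 knockout, MLPKO) and carried floxed RAD alleles, and all mice received tamoxifen once, at 100 mg/kg and 10 weeks of age. Hearts were taken at 16 weeks by the labels, which also give 1 month after tamoxifen. The MYH6-MerCreMer transgene, which drives an inducible recombinase in cardiomyocytes, was present only in the second group, cRADΔ/Δ-MLPKO (dKO in the labels' library names). The MLPKO group therefore carried no recombinase, and loss of RAD cannot be told apart from the recombinase itself.

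The classical pathway starts when C1q, assembled from C1qA, C1qB and C1qC chains, binds a target and its attached proteases C1r and C1s become active. C1s cuts C4 and C2, whose fragments form the enzyme that cuts C3, and C3 fragments coat the target and lead on to the pore built from C5 to C9. Liver makes most of the plasma proteins, whereas in tissues the C1q chains come mainly from macrophages, and fibroblasts and other stromal cells can transcribe C1r, C1s, C3, C4 and C7.

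The 250 bases before the start of the GENCODE canonical transcript of 6 of these genes are printed because the 3 C1q genes kept close step from mouse to mouse and because C1s1, C4b and C7 were the genes that passed the test. All are written 5′ to 3′ on the strand of the gene, which is the minus strand of GRCm39 for all 6. They end at the base before that start, which for C1s1, and for C2 among the genes not printed, lies inside the annotated gene because other transcripts start further upstream. C1qa lies at chr4:136626162-136626411, C1qb at chr4:136613512-136613761 and C1qc at chr4:136620377-136620626. C1s1 lies at chr6:124519319-124519568, C4b at chr17:34962913-34963162 and C7 at chr15:5093253-5093502. Capitals mark matches, on either strand, to 4 short motifs: the PU.1 core GAGGAA, the GAS element TTCNNNGAA, the C/EBP core TTGCNNAA and an IRF element (GAAA, any 2 bases, GAAA).
C1qa: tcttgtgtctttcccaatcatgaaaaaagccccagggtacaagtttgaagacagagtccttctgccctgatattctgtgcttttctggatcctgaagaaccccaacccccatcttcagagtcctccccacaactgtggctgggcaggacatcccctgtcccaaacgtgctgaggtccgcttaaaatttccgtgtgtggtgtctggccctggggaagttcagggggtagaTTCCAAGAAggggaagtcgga
C1qb: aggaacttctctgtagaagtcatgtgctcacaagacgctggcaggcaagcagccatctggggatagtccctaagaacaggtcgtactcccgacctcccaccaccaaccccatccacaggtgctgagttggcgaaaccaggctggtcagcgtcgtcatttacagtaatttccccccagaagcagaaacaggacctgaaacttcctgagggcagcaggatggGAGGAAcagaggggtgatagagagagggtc
C1qc: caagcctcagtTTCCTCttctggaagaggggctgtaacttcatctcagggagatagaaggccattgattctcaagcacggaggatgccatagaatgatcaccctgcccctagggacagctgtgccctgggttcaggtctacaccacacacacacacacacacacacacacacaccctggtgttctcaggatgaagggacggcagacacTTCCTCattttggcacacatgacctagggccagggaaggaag
C1s1: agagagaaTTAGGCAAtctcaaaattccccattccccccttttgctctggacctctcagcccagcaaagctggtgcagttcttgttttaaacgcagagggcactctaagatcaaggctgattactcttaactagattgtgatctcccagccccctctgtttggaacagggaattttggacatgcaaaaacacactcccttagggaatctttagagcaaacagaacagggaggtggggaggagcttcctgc
C4b: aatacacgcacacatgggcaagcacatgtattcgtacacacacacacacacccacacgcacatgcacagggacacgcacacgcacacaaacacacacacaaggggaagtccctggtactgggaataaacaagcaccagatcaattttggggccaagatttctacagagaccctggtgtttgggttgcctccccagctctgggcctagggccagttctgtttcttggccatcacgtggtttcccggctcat
C7: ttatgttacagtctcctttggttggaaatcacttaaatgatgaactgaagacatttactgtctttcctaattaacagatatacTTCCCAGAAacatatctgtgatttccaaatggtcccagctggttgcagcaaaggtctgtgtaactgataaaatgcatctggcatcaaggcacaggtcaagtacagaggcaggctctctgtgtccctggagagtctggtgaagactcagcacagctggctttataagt

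C1qa held a GAS match that began 21 bases before its start, and C7 held one 167 bases before. C1qb held a PU.1 core 30 bases before its start and C1qc held 2, at 239 and 42 bases, whereas C1s1 held a C/EBP core at 242 bases. No motif of the 4 was found in the C4b window or, among the genes not printed, in that of C2, and C1ra and C3 each held a C/EBP core at 65 and 26 bases. Over the windows of 21770 protein-coding genes, 22.9% held the PU.1 core (2 of the 9 genes here), 7.70% the GAS element (2 of 9), 9.34% the C/EBP core (3 of 9) and 3.32% the IRF element (0 of 9). No matches overlapped each other in these 9 windows. A match describes the letters only, and none of these windows was tested for binding.

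Library totals ran from 33457406 to 49965101 counts, and counts below are normalized to a common library size (TMM factors). Rrad, the gene of RAD, had 5774 to 11640 normalized counts in MLPKO and 5562 to 8362 in cRADΔ/Δ-MLPKO, with a log2 fold change of −0.38 (SE 0.20, edgeR adjusted p = 0.290). The groups overlapped, so the level of Rrad does not check the labels, and the groups are as labelled. Csrp3 was counted in all 10 mice, at 41730 to 134800 in MLPKO and 28550 to 48660 in cRADΔ/Δ-MLPKO. Its level therefore does not check the knockout either. Its log2 fold change was −1.08 (SE 0.29), which edgeR did not call (adjusted p = 0.0667) and DESeq2 did (0.0362). Without MLPKO mouse 2, the highest, it was −0.74. Cardiomyocyte markers fixed as a list of 8 genes summed to 68400 to 75500 CPM (counts scaled to a common library total) in MLPKO and 53400 to 69800 in cRADΔ/Δ-MLPKO. Of these 8, 6 had a log2 fold change below 0. At an unadjusted p under 0.05, 4 were lower, against 11.5% of all 13452 genes tested. Tnnt2 was called lower by edgeR and 3 were by DESeq2, against 1.8% and 5.84% of all genes. The other 2, Tnni3 and Atp2a2, lay above 0, and the summed ranges overlapped. Marker RNA does not separate cell share from RNA per cell, and its part in the complement values was not tested. A list of 4 hepatocyte markers summed to at most 1.02 CPM. One library stood apart in adipocyte transcripts: cRADΔ/Δ-MLPKO mouse 3 had 28.3 CPM over 5 markers, against at most 0.353 in the other 9 mice. The markers were Adipoq, Plin1, Lep, Cidec and Retn, chosen after values were seen. Values without cRADΔ/Δ-MLPKO mouse 3 are therefore given beside those of the components and of the other complement genes that edgeR or DESeq2 called. The part of its adipocyte transcripts in them was not tested. Over all counts, MLPKO mouse 2 lay furthest from the other mice of its group, and it had the lowest library total. Its chi-square per degree of freedom against each of them was 87.84 to 185.2, against 26.05 to 45.67 for cRADΔ/Δ-MLPKO mouse 3 in its group.

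Transcripts of an initiating protease (C1s1), of C4b and of the terminal component C7 were more abundant in cRADΔ/Δ-MLPKO hearts. Of the 9 genes, 3 passed the test as higher: C4b at 1.98-fold, C7 at 1.78-fold and C1s1 at 1.42-fold. None was called lower, although C2 lay close to no difference, and the other 5 genes had positive log2 fold changes from 0.36 to 0.50 without passing. Of all 13452 genes tested, 0.944% were called higher and 1.8% lower by the same rule (edgeR adjusted p under 0.05), 2.74% in all. The median log2 fold change was 0.50 over the 9 genes and 0.01 over all genes, and 8 of the 9 lay above 0 against 52.1% of all genes. At an unadjusted p under 0.05, 8 of the 9 were higher, against 10.1% of all genes. In 4 of the 9 (C1ra, C1s1, C4b and C7) every cRADΔ/Δ-MLPKO mouse lay above every MLPKO mouse, against 2.64% of all genes. In none of the 9 did every cRADΔ/Δ-MLPKO mouse lie below every MLPKO mouse, against 3.97% of all genes. DESeq2 called 5 of the 9 higher, adding C1ra (adjusted p = 0.0114) and C1qc (adjusted p = 0.0196), against 3.81% of all genes. Without cRADΔ/Δ-MLPKO mouse 3, edgeR called none of the 9, and 0.268% of all genes were called higher. The median over the 9 was then 0.32, 8 of 9 log2 fold changes stayed above 0, and the same 4 genes did not overlap, against 3.53% of all genes in those 9 mice.

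**Figure D1:**
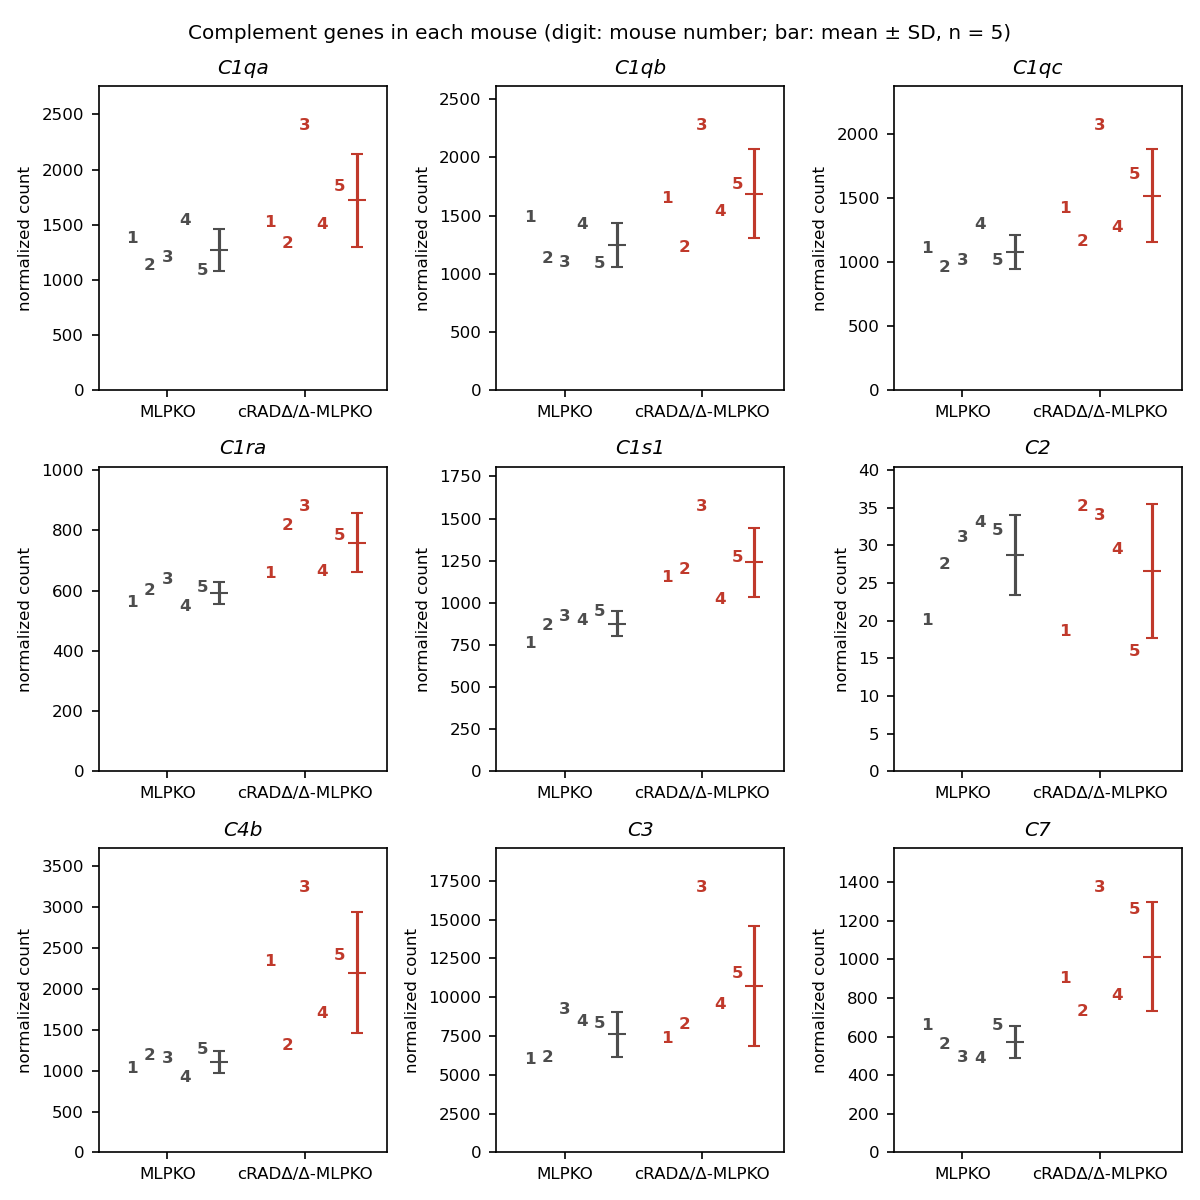
Normalized counts (y axis, from 0) of the 9 complement genes in MLPKO (grey) and cRADΔ/Δ-MLPKO (red) mice, each digit being the number of 1 mouse and each bar the mean ± SD (n = 5). Mouse 3 of cRADΔ/Δ-MLPKO is the highest of all 10 mice in 8 panels, and C1ra, C1s1, C4b and C7 show no overlap between groups.

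The recognition chains C1qa, C1qb and C1qc lie next to each other on chromosome 4 (C1qb 136606009 to 136613511, C1qc 136616466 to 136620376, C1qa 136623223 to 136626161, minus strand). C1qa had 1380, 1130, 1204, 1542 and 1089 normalized counts in MLPKO mice 1 to 5 and 1524, 1334, 2397, 1500 and 1849 in cRADΔ/Δ-MLPKO mice 1 to 5. Mouse 3 and mouse 5 of cRADΔ/Δ-MLPKO were above every MLPKO mouse, while the other 3 fell within the MLPKO range. The means were 1269 ± 189 and 1721 ± 422 (SD, n = 5), a log2 fold change of 0.44 (SE 0.15, 95% interval 0.10 to 0.77, edgeR adjusted p = 0.124). C1qb had 1483, 1134, 1102, 1420 and 1092 counts in MLPKO and 1648, 1227, 2272, 1535 and 1768 in cRADΔ/Δ-MLPKO. Here 4 of the 5 cRADΔ/Δ-MLPKO mice exceeded the highest MLPKO mouse and mouse 2 did not. The log2 fold change was 0.44 (SE 0.15, interval 0.11 to 0.77, edgeR adjusted p = 0.119). C1qc had 1104, 960.2, 1010, 1291 and 1014 counts in MLPKO and 1419, 1158, 2062, 1271 and 1680 in cRADΔ/Δ-MLPKO. Mice 2 and 4 of cRADΔ/Δ-MLPKO lay inside the MLPKO range, and the log2 fold change was 0.50 (SE 0.15, interval 0.18 to 0.81, edgeR adjusted p = 0.0808). DESeq2 placed C1qc past the threshold (adjusted p = 0.0196) and C1qa and C1qb not (0.0578 and 0.0518). Without cRADΔ/Δ-MLPKO mouse 3 the 3 log2 fold changes were 0.30, 0.32 and 0.37.

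The chains moved together from mouse to mouse. The mean of each genotype was first taken away. The 3 pairs of chains then had a Pearson r of 0.914 to 0.968 and a Spearman rho of 0.842 to 0.903 over 10 mice. This is a description, since in each mouse both genes share the depth and cell make-up of 1 library. Macrophage markers lay in the same direction: of 14 listed, 12 had a log2 fold change above 0, against 52.1% of all genes. Of the 14, 8 were higher at an unadjusted p under 0.05, against 10.1% of all genes. None passed the adjusted test by edgeR, and DESeq2 called 4 higher, against 3.81% of all genes. The median of the 14 was 0.45. The summed level of the list was 117 to 189 CPM in MLPKO and 151 to 287 in cRADΔ/Δ-MLPKO, highest in mouse 3, and none of the 14 was at 0. Their part in the C1q values was not tested. In bulk tissue, fewer or more cells of a type and less or more RNA per cell cannot be told apart.

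The proteases of C1 are encoded side by side on chromosome 6. C1ra (124489364 to 124500402, plus strand), which encodes the C1r protease that activates C1s, had 562, 601, 637, 546 and 610.1 normalized counts in MLPKO and 656, 815, 879, 662 and 783 in cRADΔ/Δ-MLPKO. The groups did not overlap, although cRADΔ/Δ-MLPKO mice 1 and 4 lay close above MLPKO mouse 3. The log2 fold change was 0.36 (SE 0.09, interval 0.16 to 0.56), a fold of 1.28 that did not pass by edgeR (adjusted p = 0.0585). It came to 0.31 on the log2 scale without cRADΔ/Δ-MLPKO mouse 3 (edgeR adjusted p = 0.112). C1s1 (124507297 to 124559389, minus strand), which encodes the C1s protease that cuts C4 and C2, had 759, 865, 916, 893 and 948 counts in MLPKO. In cRADΔ/Δ-MLPKO it had 1150, 1195, 1570, 1021 and 1271 counts, all above the MLPKO mice. C1s1 rose from 876 ± 72.6 to 1241 ± 205 (SD, n = 5), a log2 fold change of 0.50 (SE 0.11, interval 0.27 to 0.73, edgeR adjusted p = 0.0334). The call was lost without MLPKO mouse 1 (adjusted p = 0.0793) or 5 (0.0672), or without cRADΔ/Δ-MLPKO mouse 2 (0.0599), 3 (0.0549) or 5 (0.0790), with log2 fold changes of 0.41 to 0.57 over all 10 such edgeR fits. Both proteases have a near copy: 35.9% of the 100-base windows of the C1ra transcript and 7.99% of those of C1s1 occur in another gene, mainly C1rb and C1s2. C1rb and C1s2 had at most 22 and 20 raw counts in any mouse, and how reads were split between the copies is uncertain.

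C4b and C2 supply both parts of the enzyme that cuts C3, and both lie in the major histocompatibility complex on chromosome 17 (C4b 34947354 to 34962912, C2 35081578 to 35117241, minus strand). C4b had 1023, 1180, 1147, 918 and 1256 normalized counts in MLPKO and 2332, 1304, 3236, 1698 and 2402 in cRADΔ/Δ-MLPKO. All cRADΔ/Δ-MLPKO mice were above all MLPKO mice, with mouse 2 only just so and mouse 3 highest. C4b rose from 1105 ± 134 to 2194 ± 739 (SD, n = 5), a log2 fold change of 0.99 (SE 0.20, interval 0.55 to 1.43, edgeR adjusted p = 0.0302), the largest of the 9. Without cRADΔ/Δ-MLPKO mouse 3 its mean there was 1934 ± 526 (SD, n = 4) and the log2 fold change 0.81 (edgeR adjusted p = 0.0560). The call was also lost without MLPKO mouse 1 (adjusted p = 0.0726) or 5 (0.0672), or without cRADΔ/Δ-MLPKO mouse 1 (0.0538) or 5 (0.0751), the log2 fold change staying between 0.81 and 1.13 over all 10 edgeR fits. Its near copy C4a, which shares 16.3% of the 100-base windows of C4b, had 0 to 22.6 normalized counts, and its log2 fold change of 1.08 (SE 0.53) did not pass (edgeR adjusted p = 0.261).

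C2 was the exception. It had 20.1, 27.5, 31.0, 33.1 and 31.9 normalized counts in MLPKO and 18.6, 35.1, 33.9, 29.5 and 15.9 in cRADΔ/Δ-MLPKO. The groups overlapped from end to end, with mice 1 and 5 of cRADΔ/Δ-MLPKO the lowest of all 10. The log2 fold change was −0.11 (SE 0.28, edgeR adjusted p = 0.864), and its interval of −0.71 to 0.50 does not exclude a change of the size seen for C1s1 or the C1q chains. Leaving out cRADΔ/Δ-MLPKO mouse 3 gave −0.20 (edgeR adjusted p = 0.772). C2 also shares 38.4% of its annotated exon bases with Gm20547, a gene on the same strand that had 0 counts in every mouse, and how reads over both were counted is not given in the sources used here.

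C3, on which all complement pathways meet, lies further along chromosome 17 (57510964 to 57535155, minus strand). It had 6009, 6086, 9192, 8412 and 8318 normalized counts in MLPKO and 7341, 8238, 17060, 9533 and 11510 in cRADΔ/Δ-MLPKO. Mice 3, 4 and 5 of cRADΔ/Δ-MLPKO were above every MLPKO mouse, whereas mice 1 and 2 were not, and mouse 3 was far above the rest. The log2 fold change was 0.50 (SE 0.21, interval 0.03 to 0.96), which did not pass (edgeR adjusted p = 0.204). Without cRADΔ/Δ-MLPKO mouse 3 it was 0.27 (SE 0.16, edgeR adjusted p = 0.396), the mean there falling from 10740 to 9155. In cRADΔ/Δ-MLPKO the coefficient of variation of C3 was 36.0%, the largest of the 9, against 19.2% in MLPKO. That spread rested largely on mouse 3. Without it the SD in cRADΔ/Δ-MLPKO fell from 3860 (n = 5) to 1810 (n = 4), against 1460 in MLPKO (n = 5).

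C7, the second protein to join the membrane pore, lies on chromosome 15 (5017233 to 5093252, minus strand). It had 659, 557, 494, 487 and 658 normalized counts in MLPKO and 902, 729, 1371, 813 and 1257 in cRADΔ/Δ-MLPKO. The groups did not overlap, and mice 3 and 5 of cRADΔ/Δ-MLPKO were highest, as for C4b. C7 rose from 571 ± 84.4 to 1014 ± 283 (SD, n = 5), a log2 fold change of 0.83 (SE 0.18, interval 0.45 to 1.21, edgeR adjusted p = 0.0334). Without cRADΔ/Δ-MLPKO mouse 3 the log2 fold change was 0.70 (SE 0.16, edgeR adjusted p = 0.0682). The call was lost as well without MLPKO mouse 1 (adjusted p = 0.0586), 3 (0.0599) or 5 (0.0672), or without cRADΔ/Δ-MLPKO mouse 4 (0.0515) or 5 (0.0816), with log2 fold changes of 0.70 to 0.93 over the 10 edgeR fits. No 100-base window of the C7 transcript occurs in another gene, and the same holds for C3 and the C1q chains.

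**Figure D2:**
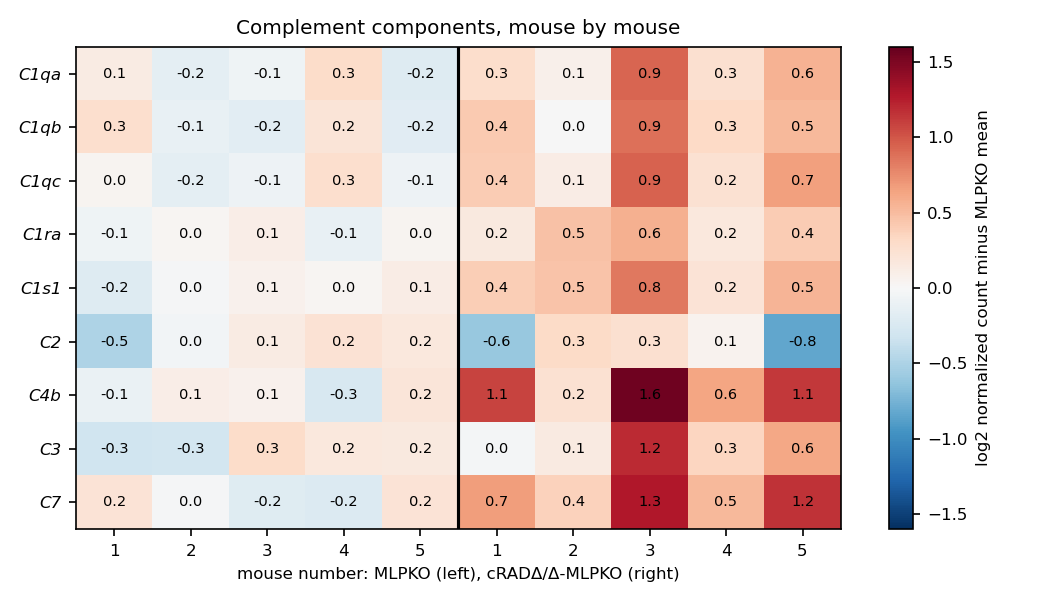
Each cell is the log2 normalized count of 1 gene (rows) in 1 mouse (columns; MLPKO left of the line, cRADΔ/Δ-MLPKO right) minus the mean of the 5 MLPKO mice, blue below and red above. Mouse 3 of cRADΔ/Δ-MLPKO reaches 1.56 for C4b, 1.28 for C7 and 1.19 for C3, while mouse 2 stays at 0.25, 0.37 and 0.14.

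Within cRADΔ/Δ-MLPKO, mouse 3 had the highest value for 8 of the 9 genes and mouse 2 the lowest for 5. C4b and C7 followed each other across mice within genotype (Pearson r 0.818, n = 10), as did C1s1 and C3 (0.806) and C1ra and C1s1 (0.782), whereas the 8 pairs with C2 ran from −0.358 to 0.387. Both genes of a pair come from the same library in each mouse, with its depth and cell make-up, so these r values only describe. Of 12 fibroblast markers, 1 (Dpt) was called higher and 7 lay above 0, against 0.944% and 52.1% of all genes. None was at 0, and their median log2 fold change was 0.07. Their summed level was 2530 to 3350 CPM in MLPKO and 2520 to 3790 in cRADΔ/Δ-MLPKO. The sum was highest in mouse 1 of cRADΔ/Δ-MLPKO, but single markers differed in their highest mouse. Within cRADΔ/Δ-MLPKO it was mouse 1 for Pdgfra, Dcn, Lum, Gsn and Mfap5. Dpt and Col3a1 were highest in its mouse 3, and Tcf21 and Ddr2 in its mouse 5. Col1a1, Col1a2 and Pi16 were highest in MLPKO mouse 2. At an unadjusted p under 0.05, 2 of the 12 were higher, against 10.1% of all genes. The part of fibroblast number in the values of C1ra, C1s1, C3, C4b and C7 was not tested. Hepatocyte markers were near 0 in every mouse, with none of the 4 past the count filter.

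Whether 1 component differed more than another was asked of 4 log2 ratios per mouse, by two-sided exact permutation tests over 5 against 5 mice. C4b relative to C2 was 1.09 higher in cRADΔ/Δ-MLPKO (exact p = 0.0397, 0.0794 after Benjamini-Hochberg adjustment over 4 ratios). C4b relative to C1qa was 0.51 higher (exact p = 0.0397, adjusted 0.0794) and C4b relative to C3 was 0.48 higher (exact p = 0.0635, adjusted 0.0847). C7 relative to C3 was 0.34 higher (exact p = 0.183). All 4 ratios overlapped between groups and none passed, where the smallest p the design allows is 0.00794. The larger fold of C4b than of its neighbours in the cascade is therefore not shown to be a difference between components.

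Per transcript length, C3 and C1qa were the most abundant of the 9. In MLPKO, C3 had an RPKM (CPM divided by transcript length in kilobases) of 35.7 ± 6.85 (SD, n = 5), C1qa 28.2, C1qc 14.1, C1qb 11.9, C1s1 7.27, C7 5.10, C4b 4.92, C1ra 4.80 and C2 0.261. The ranges over mice overlapped between C3 and C1qa, between C1qc and C1qb, and among C7, C4b and C1ra, while C1s1 and C2 stood apart from their neighbours in this order. In cRADΔ/Δ-MLPKO the RPKM level of C3 was 50.3 ± 18.1 (SD, n = 5) and that of C4b 9.77 ± 3.29, just above C7 at 9.07 ± 2.53. With the length of all annotated exons in place of the canonical transcript, a choice made after seeing the data, the MLPKO level of C1qb was 4.83 and that of C7 2.58, so the middle of the order depends on the gene model.

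**Figure D3:**
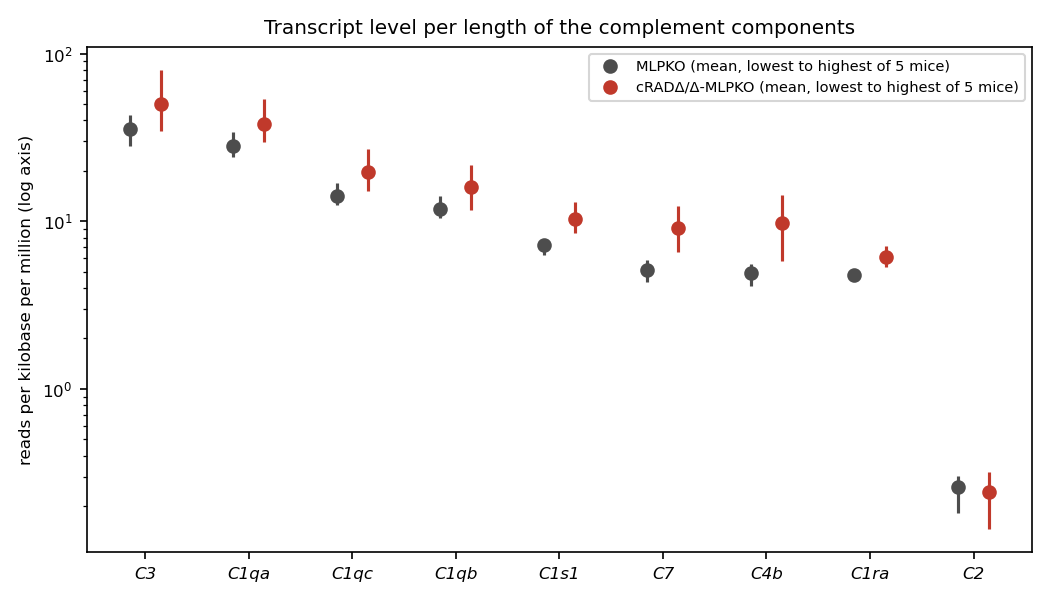
Level per transcript length (RPKM, log y axis) of the 9 genes in MLPKO (grey) and cRADΔ/Δ-MLPKO (red), with dots for the mean of 5 mice and lines from the lowest to the highest mouse. C3 has the highest mean in both groups, and C2 lies far below the other 8 at 0.261 and 0.242. The C2 level is uncertain because much of its transcript is shared with Gm20547.

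The rest of the system was followed as a list of 43 genes, of which 42 had a row of counts and 26 passed the count filter. Among these 26, 2 were called higher, Serping1 and Cd93, and none lower, against 0.944% and 1.8% of all genes. At an unadjusted p under 0.05, 11 were higher and 3 lower, against 10.1% and 11.5% of all genes, and the median log2 fold change was 0.36. DESeq2 called 8 higher and 2 lower, against 3.81% and 5.84% of all genes.

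Serping1 encodes C1 inhibitor, which blocks C1r and C1s. It had 3317, 3656, 3705, 3579 and 3507 normalized counts in MLPKO and 4726, 4849, 5271, 3873 and 4527 in cRADΔ/Δ-MLPKO, with no overlap. Serping1 rose from 3553 ± 152 to 4649 ± 512 (SD, n = 5), a log2 fold change of 0.39 (SE 0.08, interval 0.22 to 0.55, edgeR adjusted p = 0.0267). The call was lost without MLPKO mouse 1 (adjusted p = 0.0676) or 5 (0.0689) or cRADΔ/Δ-MLPKO mouse 2 (0.0558), 3 (0.0572) or 5 (0.0676), all by edgeR, and without cRADΔ/Δ-MLPKO mouse 3 the log2 fold change was 0.35. Of the other soluble regulators, Vtn, vitronectin, which binds the forming terminal complex, had a log2 fold change of 0.47, which edgeR did not call (adjusted p = 0.0692) and DESeq2 did (0.0155), and 0.38 without cRADΔ/Δ-MLPKO mouse 3. Clu, clusterin, which keeps the terminal complex from membranes, ran the other way at −0.62 (SE 0.18). It was not called by edgeR (adjusted p = 0.0840) but was by DESeq2 (0.0118). Its log2 fold change was −0.67 without cRADΔ/Δ-MLPKO mouse 3 and −0.43 without MLPKO mouse 2, which had the highest Clu count. Clu was the most counted of them, at 24890 to 53540 in MLPKO and 18130 to 27290 in cRADΔ/Δ-MLPKO. Cfi had at most 8 raw counts in any mouse.

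On membranes, Cd55 and Cd59a, which protect host cells from the C3-cutting enzyme and from the pore, had log2 fold changes of 0.17 (interval −0.24 to 0.57) and 0.04 (−0.15 to 0.22), and neither passed. All 5 membrane regulators tested had log2 fold changes above 0, against 52.1% of all genes, and none was called.

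In the alternative pathway only Cfp could be tested. Cfp, properdin, which stabilizes the C3-cutting enzyme and comes from myeloid cells, had 164, 144, 167, 168 and 148 normalized counts in MLPKO and 223, 171, 495, 349 and 235 in cRADΔ/Δ-MLPKO. The groups did not overlap, mouse 2 lying just above the highest MLPKO mouse, and the log2 fold change of 0.89 (SE 0.25) did not pass by edgeR (adjusted p = 0.0691) but did by DESeq2 (0.00845). The log2 value without cRADΔ/Δ-MLPKO mouse 3 was 0.63 (edgeR adjusted p = 0.117). Cfb had at most 8 raw counts, and whether its exons overlap those of another gene was not examined. Cfd, adipsin, an adipocyte product, had 2520 normalized counts in cRADΔ/Δ-MLPKO mouse 3 and at most 23.7 in the other 9 mice, and was not tested.

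Of the lectin pathway, 5 of 9 listed genes were tested and none was called. Masp1, a protease carried by the lectins of this pathway, had 2481, 3490, 1963, 1518 and 2477 normalized counts in MLPKO and 1972, 1388, 795.0, 1131 and 1064 in cRADΔ/Δ-MLPKO. Mouse 1 of cRADΔ/Δ-MLPKO lay inside the MLPKO range and the other 4 below it, and the log2 fold change of −0.91 (SE 0.25) was not called by edgeR (adjusted p = 0.0679) but was by DESeq2 (0.0316). Leaving out cRADΔ/Δ-MLPKO mouse 3 gave −0.77 (edgeR adjusted p = 0.131), and leaving out MLPKO mouse 2, the highest, gave −0.73 (0.099). Colec12, a membrane scavenger receptor of the collectin family, had −0.30 (edgeR adjusted p = 0.205). Mbl2 and Fcnb were at 0 in every mouse.

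Beyond C7 the pore genes were scarcely counted. C6 had at most 18 raw counts, C8b at most 4, and C8a and C9 were at 0 in all 10 mice. Hc, the mouse gene of C5, was added after values were seen and had at most 5.52 normalized counts. C8g, at 24.6 to 75.9 in MLPKO and 42.3 to 74.2 in cRADΔ/Δ-MLPKO, was the 1 other gene of this step tested, with a log2 fold change of 0.17 (edgeR adjusted p = 0.800).

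Receptors for complement fragments were mostly above 0, with 7 of 8 tested in that direction, against 52.1% of all genes. Of these 8, 1 was called higher, against 0.944% of all genes. Cd93, named at first as a C1q receptor and expressed by endothelium and myeloid cells, rose from 3495 ± 340 to 4387 ± 291 normalized counts (SD, n = 5) without overlap, a log2 fold change of 0.33 (SE 0.07, edgeR adjusted p = 0.0426). That call held in 2 of the 10 edgeR fits that left out 1 mouse, those without MLPKO mouse 3 or 4, where adjusted p over all 10 ran from 0.0302 to 0.101, and the log2 fold change without cRADΔ/Δ-MLPKO mouse 3 was 0.30. Endothelial markers lay above 0 in 8 of 8, against 52.1% of all genes. Of the 8, 7 were higher at an unadjusted p under 0.05, against 10.1% of all genes. Tek was called higher by edgeR and 3 were by DESeq2, against 0.944% and 3.81% of all genes. Kdr and Tek did not overlap between groups, against 2.64% of all genes. None was at 0, and the endothelial markers summed to 843 to 973 CPM in MLPKO and 1000 to 1140 in cRADΔ/Δ-MLPKO. Their part in the Cd93 value was not tested. C3ar1 and C5ar1, the receptors of C3a and C5a, had log2 fold changes of 0.51 (edgeR adjusted p = 0.230) and 0.63 (0.103). Itgam and Itgb2, the subunits of complement receptor CR3, had 0.89 (edgeR adjusted p = 0.106) and 0.77 (0.0724), and Vsig4, the macrophage receptor for C3b, had 1.49 (0.0926). DESeq2 called C5ar1, Itgam, Itgb2 and Vsig4. Without cRADΔ/Δ-MLPKO mouse 3 the edgeR log2 fold changes of Itgam, Itgb2 and Vsig4 were 0.58, 0.57 and 1.10, and those of C3ar1 and C5ar1 0.32 and 0.49. Of 6 monocyte and neutrophil markers, 5 were tested, all above 0, against 52.1% of all genes. Of the 5, 2 were higher at an unadjusted p under 0.05, against 10.1% of all genes. None was called by edgeR, and DESeq2 called Ccr2 higher (adjusted p = 0.00828), against 3.81% of all genes. None of the 6 was at 0, and the markers summed to 2.93 to 5.13 CPM in MLPKO and 3.27 to 8.64 in cRADΔ/Δ-MLPKO. Their part in the receptor and Cfp values was not tested.

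**Figure D4:**
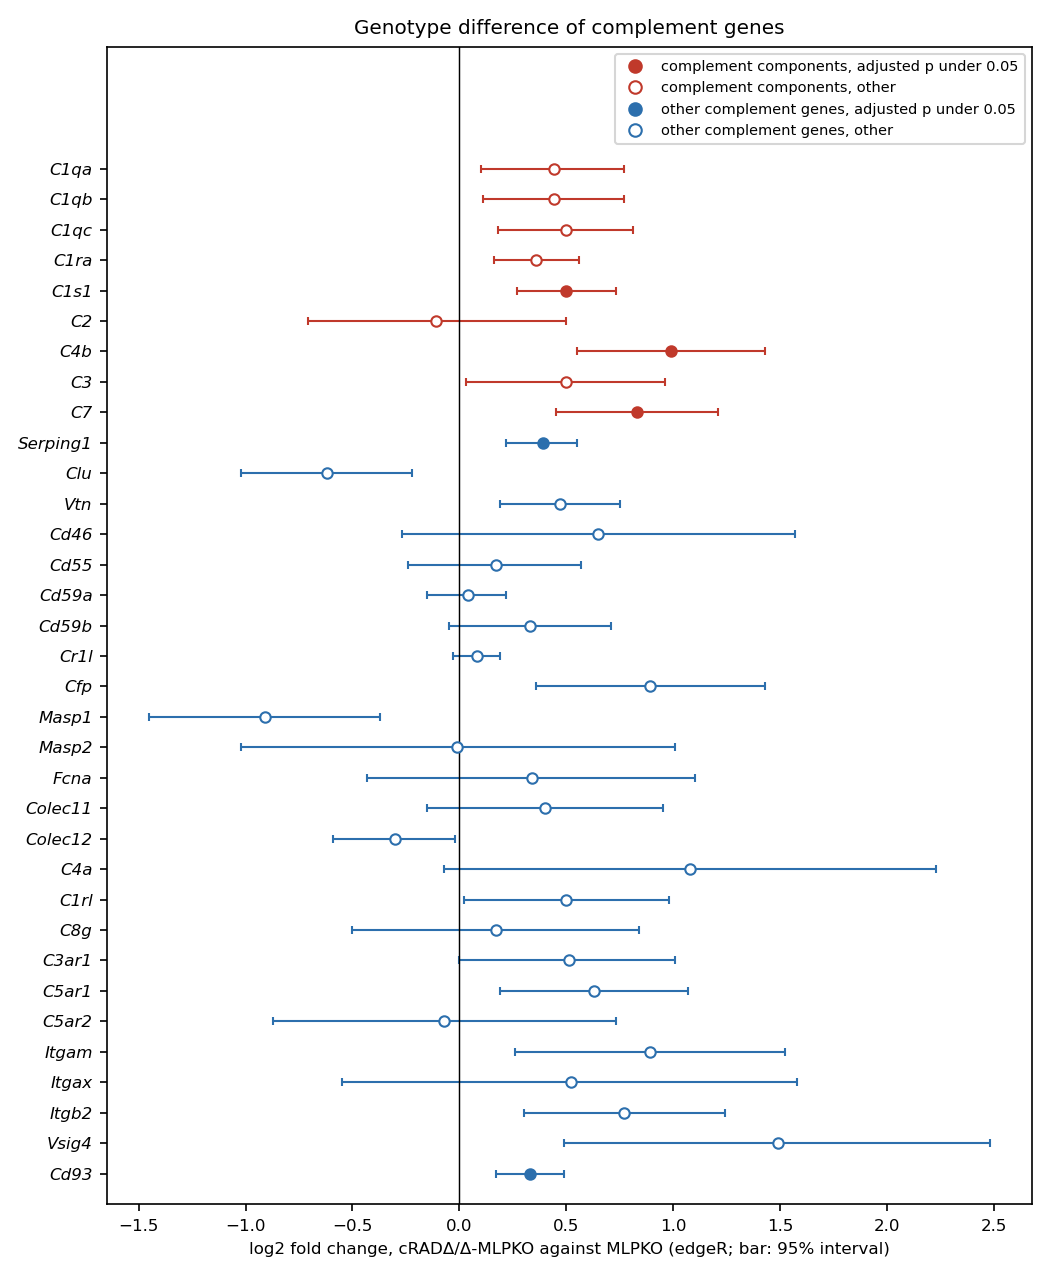
Log2 fold change of cRADΔ/Δ-MLPKO against MLPKO (x axis, edgeR, 95% intervals) for the 9 complement components (red) and other complement genes tested (blue), filled where the adjusted p was under 0.05. C1s1, C4b, C7, Serping1 and Cd93 are filled, all right of 0, and Clu, Masp1 and Colec12 have intervals left of 0 without being filled.

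Genes whose mouse-to-mouse pattern was most like that of a component were ranked over 13452 genes by Pearson r of log2 CPM after removal of genotype means (10 mice, no test). For C1qa they were Ptgr1 (0.979), Cbr2 (0.968) and C1qc (0.968). For C4b they were Atp9a (0.958), Erh (0.948) and Tnf (0.940), and for C7 Camkk2 (0.919), Tspan17 (0.917) and Lcp1 (0.917). For C3 they were Sez6l2 (0.947), Uchl3 (0.944) and Hspa9-ps1 (0.939). None of these neighbours was called between genotypes by edgeR. All points share library depth and cell make-up. Each r was picked as the top of 13452, and how high such a top lies by chance was not tested.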

How the data were processed

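Raw gene counts for 60676 genes in 10 libraries were deposited by the authors as 1 table; 57185 genes had values, and none of the rest was used. The submitters' processing notes name FastQC, STAR, featureCounts and GRCm39; versions and strand setting are not given in the sources used here. In every library at least 73.7% of counts from 1 to 20 were even, as when both reads of a pair are counted. Symbols came from GENCODE M39 (56629 genes matched). Members and lists were chosen with earlier results of these data known.

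After removal of Gm and Rik genes and of those that did not exceed 10 counts in 6 or more of the 10 mice, 13452 genes were tested with edgeR 4.0.16 (TMM, quasi-likelihood, Benjamini-Hochberg) in R 4.3.3 with 5 mice per group. The study used DESeq2, run here (1.42.0) as an alternative beside limma-voom 3.58.1, other scalings and filters, a block on mouse number, and leaving out each mouse. The edgeR step was also run on counts simulated from its own fitted dispersions, which cannot show whether the calls hold in these mice. Ratios used log2 of normalized count plus 0.5. RPKM used the GENCODE canonical transcript length. Named genes were all 9 components, listed complement genes chosen by name, any other listed gene called, Rrad and Csrp3, and the 3 genes most like each of 4 components. Vtn, Masp1, C8g, C8a, C8b, C9, Mbl2, Fcnb, C1rb and C1s2 were named after their values were seen. One listed gene is counted in the list but not reported here. The replicates are separate mice, and no columns were left unmapped.

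Marker lists of lymphocytes (4 tested), mural cells (6) and mesothelium (4) were also followed. Their edgeR calls were 0, 2 (Rgs5 and Acta2, higher) and 0, against 2.74% of all genes called.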

Additional observations from a re-analysis of the deposited data

Results flagged for a closer look

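A gap test for 1 mouse far from the other 4 of its group was run on 54 groups of 5 values and flagged 3; chance flags about 1 in 20 groups. Cfd, adipsin, had 2520 normalized counts in cRADΔ/Δ-MLPKO mouse 3, against 0 to 17.3 in the other 4 mice of that group. Cfd also had 23.7 normalized counts in MLPKO mouse 5, against 0 to 4.90 in the other 4. Itgam had 214.5 normalized counts in cRADΔ/Δ-MLPKO mouse 3, against 86.4 to 113 in the others. The same library held the highest count of 8 of the 9 complement components, and the adipocyte markers Plin1 (373 normalized counts), Cidec (447) and Adipoq (244) were high in it; their part was not tested.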

How the results depend on the processing

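The calls of C4b, C7, C1s1, Serping1 and Cd93 held in all 9 planned fits that kept every mouse, with C4b between 0.92 and 1.02 (log2). DESeq2 called 1298 genes against 369 by edgeR, 5 of the 9 components, and 8 listed complement genes higher and 2 lower. The cause was not tested. Upper quartile scaling also called C1ra (adjusted p = 0.0481).

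Mouse numbers belong to different animals, and same-numbered mice had deviations correlated between −0.044 and 0.152. With mouse number as a replicate block, edgeR called 281 genes, C1ra passed (adjusted p = 0.0481), the 3 calls among the components stood, and 1 listed gene, Masp1, was called lower.

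Leaving out 1 mouse in turn leaves fewer mice. It gave 47 to 826 genes called (47 without MLPKO mouse 5, 826 without MLPKO mouse 4), 0 to 4 components called higher and 0 lower, and 0 to 3 other complement genes higher and 0 to 2 lower. No component was called without MLPKO mouse 1 or 5 or without cRADΔ/Δ-MLPKO mouse 3 or 5. The log2 ratio difference ran from 0.32 to 0.58 for C4b to C3, 0.87 to 1.37 for C4b to C2, 0.22 to 0.48 for C7 to C3 and 0.37 to 0.61 for C4b to C1qa. The sign turned for C2 without cRADΔ/Δ-MLPKO mouse 5 (0.04, range −0.23 to 0.04) and for Cd59a without MLPKO mouse 2 (−0.02, range −0.02 to 0.09), neither called at any setting. The low counts of C2, C4a and the pore genes limit what can be seen of them.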
